A study of Mus musculus with 12 samples.

Results

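The genes described here encode the intermediate filaments and the membrane skeleton of the lens fiber cell: *Bfsp1*, *Bfsp2*, *Vim*, *Nes*, *Sptan1*, *Sptbn1*, *Ank2* and *Tmod1*. They were taken by gene symbol, 8 of the 55487 genes counted, and all 8 were among the 8984 that passed the filter on low counts. The counts came from RNA sequencing of 12 lens libraries at postnatal day 7 (P7), with 3 libraries for each of 4 genotypes. Wild-type (WT) mice carried isoleucine on both alleles of *Trpm3*, which encodes a cation channel of the lens epithelium. *Trpm3*-I/M mice were heterozygous and *Trpm3*-M/M mice homozygous for a methionine substitution made by CRISPR/Cas-9 editing. *Trpm3*-KO mice were made by homologous recombination, with a reporter cassette that interrupts the gene and leaves fusion transcripts in the lens. All mice were kept on the B6J background, chosen because some other inbred strains carry a *Bfsp1* deletion, and each library pooled lenses of several male and female mice. The mutant groups are called KO, I/M and M/M here. Since libraries were pools, a *p*-value here measures the spread between pools and not between single animals.

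Lens fiber cells lose their organelles and depend on the cytoskeleton for shape and transparency. Filensin (*Bfsp1*) and phakinin (*Bfsp2*) co-assemble into the beaded filament, an intermediate filament found in the lens fiber cell and required to keep the fiber lattice in order. Vimentin and nestin are more widely expressed intermediate filament proteins, and the spectrin network, with ankyrin-B and tropomodulin at its contacts with the membrane and with actin, lines the fiber cell membrane.

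Total counts on genes ranged from 56162169 to 82090198 per library. As the check of the labels, *Trpm3* itself was measured at 250.6 to 285 normalised CPM (counts scaled to a common library size) in WT, 89.9 to 99.7 in KO, 370 to 413 in I/M and 468.5 to 484 in M/M lenses. The scaling used TMM factors, which correct for unequal RNA composition. For the tissue label, 12 of 12 lens fiber markers and 8 of 8 lens epithelium markers passed the filter. By adjusted *p* in M/M lenses, 10 of the former were lower, and 3 of the latter were higher and 4 lower. The epithelium markers include *Trpm3* itself, the edited gene, which is among the 3 that were higher. Over all genes tested, 31.4% were lower and 31.4% higher. The factors rose from 0.828 to 0.905 in WT to 1.22 to 1.27 in M/M libraries, while the crystallin genes, which encode the bulk protein of the lens, fell from 61.0% to 63.9% of counts in WT to 49.4% to 51.3% in M/M. I/M replicate 3 held 0.0721 CPM of *Xist*, a transcript of female cells, against at least 45.8 in each of the other 11 libraries, which goes against a pool of both sexes. Calls of the 8 genes in I/M against WT are therefore also given without that library. I/M values of other single genes and the changes per M allele are given only with it.

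In the WT lens, the 8 genes differed widely in level. Per kilobase of annotated exon, *Bfsp1* stood at 5020 ± 276 CPM (SD, n = 3) and *Bfsp2* at 3096 ± 197. *Vim* followed at 276 ± 15.2 CPM per kilobase, *Sptan1* at 96.1 ± 6.93 and *Sptbn1* at 53.6 ± 5.45. *Tmod1* was measured at 18.0 ± 1.21, *Ank2* at 14.5 ± 1.84 and *Nes* at 1.39 ± 0.0350 CPM per kilobase. The WT libraries of neighbours in this order did not overlap. By CPM without the correction for length, *Bfsp1* ranked 16th and *Bfsp2* 18th of all genes in WT lenses, and *Nes* ranked 6323rd. The exon length merges all annotated transcripts, so the per-kilobase level of a gene with many isoforms, such as *Ank2*, is a lower estimate.

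**Figure D1:**
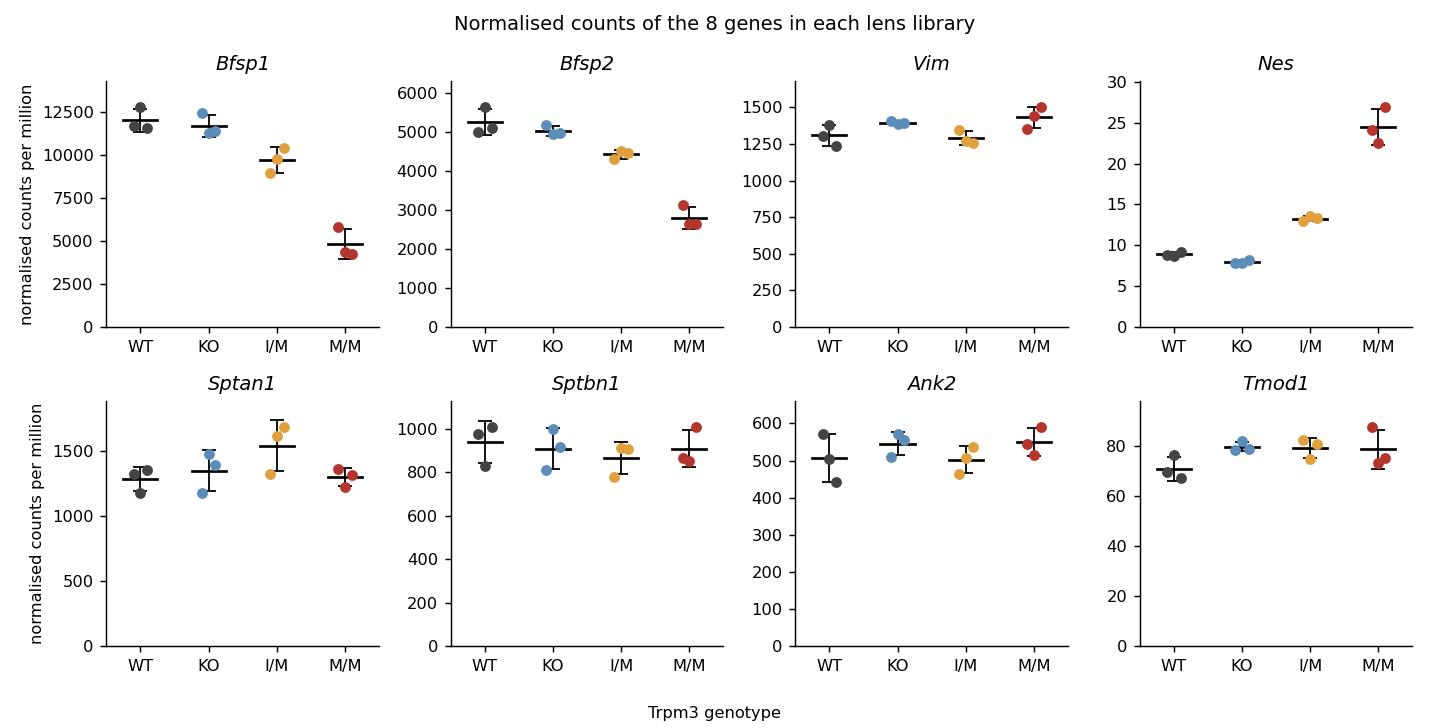
Normalised CPM (vertical axes, from 0) of the 8 genes in each library, by *Trpm3* genotype (horizontal axes). Points are libraries, thick lines are means and error bars are SD (n = 3). *Bfsp1* and *Bfsp2* are lowest and *Nes* is highest in the 3 M/M libraries, while for each of the other 5 genes at least 1 M/M library lies within the WT range.

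*Bfsp1* (ENSMUSG00000027420) lies on chromosome 2 from 143826528 to 143863173 on the minus strand of GRCm38, and *Nes* (ENSMUSG00000004891) on chromosome 3 from 87971078 to 87980451 on the plus strand. The stretches before their starts are shown because these were the members with the largest fall and the largest rise. The sequences are those of RefSeq on GRCm38.p6, read 5′ to 3′ on the strand of the gene, with CG dinucleotides in capitals. The *Bfsp1* stretch is chr2:143863174-143863423, directly upstream of the first exon, and the *Nes* stretch is chr3:87970843-87971077, which ends at the base before the annotated first exon.
Bfsp1: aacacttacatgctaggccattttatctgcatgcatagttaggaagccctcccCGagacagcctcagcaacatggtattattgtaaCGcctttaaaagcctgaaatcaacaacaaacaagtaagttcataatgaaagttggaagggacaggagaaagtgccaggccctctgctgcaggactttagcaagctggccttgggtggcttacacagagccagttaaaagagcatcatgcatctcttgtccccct
Nes: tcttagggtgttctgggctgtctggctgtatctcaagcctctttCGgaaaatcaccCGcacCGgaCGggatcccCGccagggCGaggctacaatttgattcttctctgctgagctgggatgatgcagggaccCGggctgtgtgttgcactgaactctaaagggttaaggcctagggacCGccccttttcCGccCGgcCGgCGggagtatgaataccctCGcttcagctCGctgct
The *Bfsp1* window holds 2 CG dinucleotides in 250 bases, and 29.0% of the 32851 RefSeq promoter windows hold as few. The *Nes* window holds 15 in its full 250 bases, and 74.6% of windows hold that many or fewer. The median window holds 6. None of 5 motifs searched on both strands was found in these windows or in that of *Bfsp2*, which lies inside the gene at an internal start. The motifs were the AP-1 site TGACTCA (in 4.46% of all windows), the MAF half-site TGCTGAC (3.81%), the heat shock element core GAANNTTC (6.69%), the TATA box TATAAA (12.4%) and the SOX site CATTGT (10.7%). These letters were not in these windows, which says nothing of binding elsewhere.

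The beaded filament genes were compared between genotypes first. Both were lower in M/M lenses than in WT lenses, *Bfsp1* by 59.9% and *Bfsp2* by 46.6%, and both were lower by smaller amounts in I/M lenses. *Bfsp1* was measured at 11682, 12756 and 11556 CPM in the WT libraries, 12425, 11243 and 11402 in KO, 8935, 9774 and 10426 in I/M and 5837, 4348 and 4263 in M/M. All 3 M/M libraries lay below all others, the 3 I/M libraries lay between them and WT, and KO overlapped WT. The log2 fold change of *Bfsp1* in M/M was -1.32 (SE 0.11, 95% interval -1.55 to -1.08, adjusted *p* = 2.24e-07 by the edgeR quasi-likelihood test with Benjamini–Hochberg adjustment). With each library left out in turn it ran from -1.45 to -1.22. As a share of all counts, unscaled by TMM, *Bfsp1* took 1.04% to 1.06% in WT and 0.543% to 0.713% in M/M libraries.

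*Bfsp2* (ENSMUSG00000032556, chromosome 9, 103424924 to 103480420, minus strand) encodes the smaller partner in the beaded filament. It was measured at 5012, 5638 and 5121 CPM in WT, 5181, 4946 and 4973 in KO, 4312, 4526 and 4455 in I/M and 3134, 2634 and 2656 in M/M libraries. The order of the groups was that of *Bfsp1*, with no overlap between WT, I/M and M/M. The log2 fold change in M/M was -0.90 (SE 0.07, 95% interval -1.06 to -0.75, edgeR adjusted *p* = 1.24e-07), which passed the adjusted *p* threshold of 0.05 but not the fold change threshold of 2. The antisense genes 5830418P13Rik and Gm16252 overlap *Bfsp2* and were counted at 1.02% and 0.0373% of its mean count.

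In I/M lenses, the log2 fold change was -0.31 for *Bfsp1* (95% interval -0.54 to -0.07, edgeR adjusted *p* = 0.0435) and -0.25 for *Bfsp2* (-0.40 to -0.10, edgeR adjusted *p* = 0.0158). Without I/M replicate 3 the values were -0.36 and -0.25, with edgeR adjusted *p* = 0.0469 and 0.0430. These calls were close to the threshold. The *Bfsp1* call was lost without any 1 of 7 other libraries, namely I/M replicates 1 and 2, KO replicates 2 and 3 and each WT replicate, with edgeR adjusted *p* from 0.0539 to 0.147. The *Bfsp2* call was lost without I/M replicate 1 (0.0544) or WT replicate 2 (0.0579). Over all alternatives the adjusted *p* ran from 3.00e-07 to 0.343 for *Bfsp1* and from 2.56e-04 to 0.512 for *Bfsp2*. In KO lenses, the log2 fold changes were -0.04 (95% interval -0.27 to 0.19) and -0.06 (-0.21 to 0.09), and neither passed the test. Between the mutants, M/M was below I/M by a log2 difference of -1.01 for *Bfsp1* (edgeR adjusted *p* = 5.97e-06) and -0.66 for *Bfsp2* (5.89e-06). Without I/M replicate 3 the first was -0.96, which no longer reached the fold change threshold of 2. Fitted per M allele over the 9 WT, I/M and M/M libraries, *Bfsp1* fell by 0.66 and *Bfsp2* by 0.45 on the log2 scale (edgeR adjusted *p* = 1.92e-04 and 8.70e-05).

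The 2 partners did not fall in equal measure. Their ratio within a library does not depend on scaling between libraries. The *Bfsp1*/*Bfsp2* count ratio was 2.33, 2.26 and 2.26 in WT, 2.40, 2.27 and 2.29 in KO, 2.07, 2.16 and 2.34 in I/M and 1.86, 1.65 and 1.61 in M/M libraries. The M/M ratios lay below all others, and the I/M ratios overlapped those of WT. The mean log2 ratio of M/M differed from WT by -0.42 (exact two-sided permutation, *p* = 0.1, the smallest that 3 against 3 libraries allow, 0.175 adjusted over 21 comparisons of 7 ratios). Over the 9 libraries ordered by the number of M alleles, the ratio changed by -0.21 per allele on the log2 scale (exact permutation test, *p* = 0.00476, 0.00833 adjusted over 7 ratios).

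The falls were set beside those of 25 other fiber genes, the 16 crystallin genes and 9 lens fiber markers that are not crystallins. In M/M lenses, 22 of these 25 were lower than in WT past the adjusted *p* threshold, against 31.4% of all genes tested, and none was higher. Of the 16 crystallin genes, 15 were lower. The median log2 fold change of the 25 was -0.81, and the range ran from -1.37 (*Crygb*) to -0.01 (*Grifin*), while the median of all 8984 genes tested was -0.004. The fall of *Bfsp1* exceeded that of 24 of the 25 and the fall of *Bfsp2* exceeded that of 15. In I/M lenses the median was -0.29, and *Bfsp1* (-0.31) and *Bfsp2* (-0.25) lay on either side of it. The sum of the 12 lens fiber markers was 121406 to 136379 CPM in WT and 79373 to 81511 in M/M libraries. In bulk tissue, fewer fiber cells and less RNA of these genes per fiber cell cannot be told apart.

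**Figure D2:**
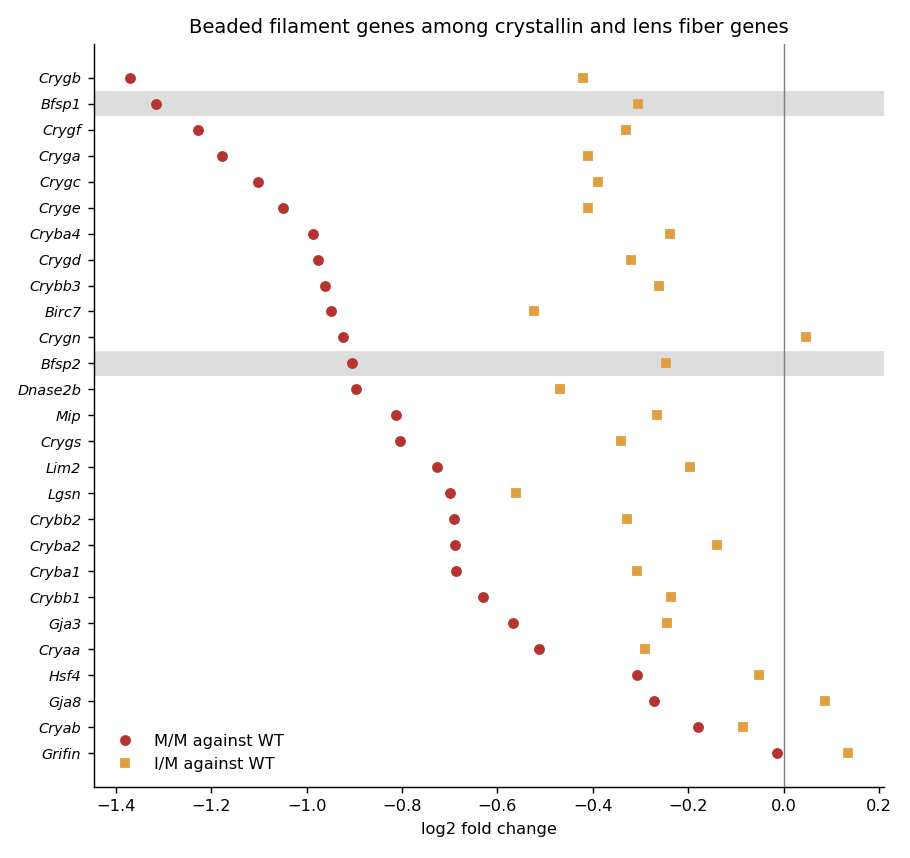
Log2 fold change against WT (horizontal axis) of *Bfsp1*, *Bfsp2* (grey bands) and 25 other fiber genes (rows), in M/M (circles) and I/M lenses (squares). *Bfsp1* is second from the lower end for M/M at -1.32 and *Bfsp2*, at -0.90, lies near the middle of the rows.

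*Vim* (ENSMUSG00000026728, chromosome 2, 13573927 to 13582826, plus strand) encodes the other abundant intermediate filament protein of the lens, present in epithelial and fiber cells. It was measured at 1307, 1382 and 1238 CPM in WT, 1408, 1386 and 1397 in KO, 1344, 1268 and 1255 in I/M and 1352.5, 1442 and 1500.45 in M/M libraries. The M/M and I/M libraries overlapped WT, and the 3 KO libraries lay just above it. The log2 fold change was 0.13 in M/M (95% interval 0.01 to 0.24, edgeR adjusted *p* = 0.0503), -0.02 in I/M (-0.14 to 0.09) and 0.09 in KO lenses (-0.02 to 0.21, edgeR adjusted *p* = 0.391). The first value lay at the threshold and passed it with DESeq2 (adjusted *p* = 0.0268, from 1.10e-07 to 0.210 over the alternatives). M/M was higher than I/M by 0.15 (edgeR adjusted *p* = 0.0304), a call that was lost without I/M replicate 3 (0.132, adjusted *p* = 0.105), without I/M replicate 2 (0.0887) or without M/M replicate 3 (0.0695). It was also lost with only the libraries compared (0.0616) and with no filter on low counts (0.128).

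The ratio of the beaded filament genes to *Vim* within a library was also lower with each M allele. In KO libraries it lay below WT, a difference that did not pass the permutation test. *Bfsp1* was counted 9.17 times as often as *Vim* in WT, 8.36 times in KO, 7.52 times in I/M and 3.33 times in M/M lenses. *Bfsp2* was counted 4.01, 3.603, 3.44 and 1.96 times as often in the same order. The KO ratios did not overlap WT for *Bfsp1* (8.11 to 8.82 against 8.94 to 9.33) or *Bfsp2* (3.56 to 3.68 against 3.83 to 4.14). Against WT, the exact permutation *p* was 0.1 for each gene in KO, I/M and M/M (0.175 adjusted over 21 comparisons). The changes per M allele were -0.73 and -0.52 on the log2 scale (exact permutation tests over 9 libraries, *p* = 0.00119 each, the smallest the design allows, 0.00278 adjusted over 7 ratios).

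**Figure D3:**
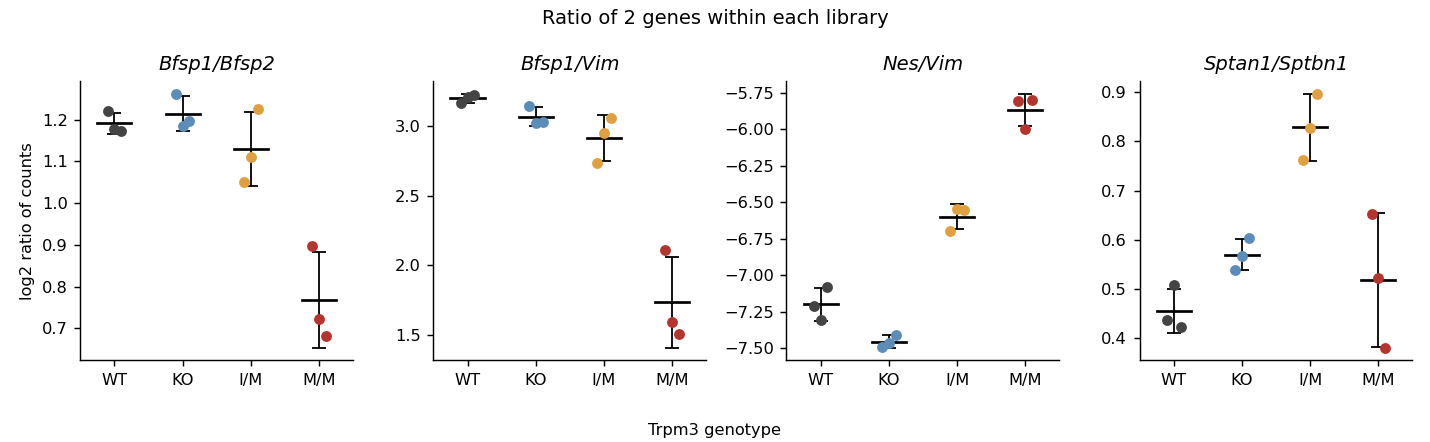
Log2 ratio of the counts of 2 genes within a library (vertical axes, which do not start at 0), by genotype (horizontal axes). Points are libraries, lines are means and error bars are SD (n = 3). *Bfsp1*/*Bfsp2* and *Bfsp1*/*Vim* are lowest and *Nes*/*Vim* is highest in M/M, and *Sptan1*/*Sptbn1* is highest in I/M.

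*Nes* moved in the direction opposite to the beaded filament genes. Nestin is an intermediate filament protein of progenitor cells that assembles with vimentin, and it is also made by growing blood vessels. It was the least abundant of the 8 genes, at 8.81, 8.74 and 9.16 CPM in WT, 7.81, 7.85 and 8.21 in KO, 12.9, 13.5 and 13.4 in I/M and 24.1, 22.5 and 26.9 in M/M libraries. No 2 of the 4 groups overlapped. The log2 fold change was 1.46 in M/M (SE 0.06, 95% interval 1.32 to 1.60, edgeR adjusted *p* = 4.58e-10), a rise of 175%. It was 0.58 in I/M (0.44 to 0.72, edgeR adjusted *p* = 1.65e-05), a rise of 49.1%, and 0.57 without I/M replicate 3 (edgeR adjusted *p* = 1.03e-04). In KO lenses it was -0.16 (-0.31 to -0.01, unadjusted *p* = 0.0346 and adjusted *p* = 0.229 by edgeR), which did not pass. M/M exceeded I/M by 0.88 (edgeR adjusted *p* = 9.12e-08), and the change per M allele was 0.73 (edgeR adjusted *p* = 5.54e-07). Relative to *Vim* within the library, *Nes* changed by 0.66 per M allele (exact permutation test, *p* = 0.00119, 0.00278 adjusted over 7 ratios). In KO the *Nes*/*Vim* ratio lay below WT without overlap, a log2 difference of -0.26 (exact permutation *p* = 0.1, 0.175 adjusted over 21 comparisons).

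Markers of some cells outside the lens were also higher in M/M libraries. Of 10 vascular endothelium markers, 6 passed the filter, 4 of them with every WT library under the CPM minimum of 5, so that their count of calls was set by the filter. The summed level of the 10 was 13.9 to 16.3 CPM in WT, 13.8 to 15.0 in KO, 25.1 to 31.7 in I/M and 59.7 to 68.7 in M/M libraries. The defining markers *Emcn* and *Sox17* were at or near 0 in WT (at most 0.0210 CPM) and reached 0.792 to 1.13 and 0.737 to 0.813 CPM in M/M. *Egfl7*, the largest of the 10 in WT, did not pass in M/M (7.20 to 8.09 CPM in WT, 7.51 to 9.10 in M/M, edgeR adjusted *p* = 0.577). In I/M it was lower (log2 fold change -0.30, edgeR adjusted *p* = 0.0241). The 11 markers of pericytes, smooth muscle and fibroblasts summed to 94.1 to 103 CPM in WT, 80.9 to 87.6 in KO, 87.2 to 96.9 in I/M and 144 to 197 in M/M. The largest of them in WT, *Pdgfra*, was lower in M/M (74.2 to 82.2 CPM in WT and 37.2 to 40.4 in M/M, log2 fold change -1.03, edgeR adjusted *p* = 3.21e-09). *Pdgfra* was also lower in I/M (log2 fold change -0.27, edgeR adjusted *p* = 0.00199). Of the 6 that passed the filter, 2 were higher and 1 lower in I/M by adjusted *p*. The higher ones were *Rgs5* (log2 fold change 3.55, edgeR adjusted *p* = 1.14e-04) and *Cspg4* (2.43, 4.33e-04). Both had every WT library under the CPM minimum. Mean CPM was 0.507 in WT and 5.98 in I/M for *Rgs5*, and 0.0878 and 0.476 for *Cspg4*. The 8 macrophage markers, of which none passed the filter, summed to 0.416 to 0.570 CPM in WT and 8.69 to 16.4 in M/M. The part of these cells in the *Nes* result was not tested. The 6 glial markers summed to 34.1 to 35.6 CPM in WT and 45.6 to 46.8 in M/M. Of the 3 that passed the filter, 1 was higher and 1 lower in M/M by adjusted *p* (background 31.4% each way). The higher one was *Glul* (mean 7.29 CPM in WT and 21.3 in M/M). The lower one was *Gfap*, the largest of the 6 in WT (log2 fold change -0.19, edgeR adjusted *p* = 0.0148). The photoreceptor markers summed to 0.651 to 0.852 CPM in WT and 1.51 to 4.13 in M/M, and the ciliary epithelium markers to 0.105 to 0.295 in WT and 1.94 to 3.04 in M/M. The pigmented cell markers summed to 3.09 to 3.63 CPM in WT, 5.32 to 6.17 in I/M and 2.89 to 3.46 in M/M.

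The spectrin membrane skeleton, by contrast, passed no test against WT. *Sptan1* (ENSMUSG00000057738, chromosome 2, 29965560 to 30031451, plus strand) encodes αII-spectrin. It was measured at 1322, 1179 and 1352 CPM in WT, 1176, 1476 and 1394 in KO, 1320.3, 1616 and 1683 in I/M and 1363, 1222 and 1311 in M/M libraries. All groups overlapped WT. The log2 fold change was 0.02 in M/M (95% interval -0.20 to 0.23), 0.26 in I/M (0.05 to 0.47, edgeR adjusted *p* = 0.0578) and 0.07 in KO (-0.14 to 0.28). The I/M value passed with DESeq2 (0.26, adjusted *p* = 0.0299, from 5.48e-06 to 0.207 over the alternatives) and was 0.19 with an edgeR adjusted *p* of 0.207 without I/M replicate 3.

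*Sptbn1* (ENSMUSG00000020315, chromosome 11, 30099395 to 30268175, minus strand) encodes βII-spectrin, the partner of αII-spectrin in the tetramer. Its libraries read 976, 829 and 1008 CPM in WT, 809, 996 and 917 in KO, 779, 911 and 904 in I/M and 867, 851 and 1007 in M/M. The groups overlapped throughout, and the log2 fold changes were -0.05 (95% interval -0.26 to 0.16), -0.12 (-0.33 to 0.09) and -0.05 (-0.26 to 0.16) in M/M, I/M and KO. Within a library, the *Sptan1*/*Sptbn1* count ratio was 1.35, 1.42 and 1.34 in WT, 1.45, 1.48 and 1.52 in KO, 1.70, 1.77 and 1.86 in I/M and 1.57, 1.44 and 1.30 in M/M. The I/M and KO ratios did not overlap those of WT, and the M/M ratios did. The mean log2 ratio differed from WT by 0.37 in I/M and 0.11 in KO (exact permutation *p* = 0.1 each, the smallest possible, 0.175 adjusted over 21 comparisons), and it had no slope over the M alleles that passed (0.03 per allele, exact permutation *p* = 0.702).

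*Ank2* (ENSMUSG00000032826, chromosome 3, 126921612 to 127499350, minus strand) encodes ankyrin-B, which ties spectrin to membrane proteins. It was measured at 572, 505 and 443 CPM in WT, 511, 570.5 and 555 in KO, 463, 507 and 535 in I/M and 546, 515 and 591 in M/M libraries. All groups overlapped WT, with log2 fold changes of 0.12 in M/M (95% interval -0.07 to 0.31), -0.01 in I/M (-0.20 to 0.17) and 0.11 in KO (-0.08 to 0.29). Its ratio to *Sptbn1* changed by 0.09 per M allele on the log2 scale (exact permutation *p* = 0.188).

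*Tmod1* (ENSMUSG00000028328, chromosome 4, 46038935 to 46116032, plus strand) encodes tropomodulin-1, which caps the pointed ends of the short actin filaments that spectrin links. It was measured at 69.5, 76.2 and 67.0 CPM in WT, 78.3, 81.97 and 78.9 in KO, 82.2, 74.7 and 80.6 in I/M and 87.6, 73.1 and 75.3 in M/M libraries. The KO libraries lay above WT, and the other groups overlapped it. The log2 fold changes were 0.15 in M/M (95% interval -0.002 to 0.30, edgeR adjusted *p* = 0.0787), 0.16 in I/M (0.01 to 0.31, adjusted *p* = 0.103) and 0.17 in KO (0.02 to 0.32, adjusted *p* = 0.218). The 3 values share the WT libraries. The antisense gene *Tstd2* overlaps *Tmod1* and was counted at 17.5% of its mean count, so part of the *Tmod1* counts is uncertain. The *Tmod1*/*Sptan1* ratio changed by 0.06 per M allele (exact permutation *p* = 0.430).

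Counted over the 8 members, 2 passed both thresholds in M/M, *Nes* higher and *Bfsp1* lower, against 8.95% of all genes tested (6.42% higher and 2.53% lower). By adjusted *p* alone, 3 members passed (1 higher and 2 lower), against 62.7% of all genes (31.4% higher and 31.4% lower). In I/M lenses, no member passed both thresholds in edgeR or DESeq2 (background 3.33%), 5 had an unadjusted *p* below 0.05 (background 41.5%) and 3 passed by adjusted *p* alone (background 32.6%). In KO lenses, no member passed under either rule in edgeR or DESeq2 (backgrounds 0.568% and 4.36%) and 2 had an unadjusted *p* below 0.05, *Tmod1* and *Nes* (background 18.1%). Between M/M and I/M, 1 member passed both thresholds (background 4.7%), 4 passed by adjusted *p* alone (background 51.3%) and 4 had libraries that did not overlap (background 60.5%). Without I/M replicate 3, no member passed both thresholds between the mutants and 3 passed by adjusted *p* alone, and the I/M counts stayed at 0 and 3. Per M allele, 3 members passed (background 53.9%). The libraries of *Bfsp1*, *Bfsp2* and *Nes* did not overlap WT in M/M and in I/M, where 65.2% and 44.6% of all genes did not, and those of *Vim*, *Tmod1* and *Nes* did not in KO, where 23.2% of all genes did not. The median log2 fold change of the 8 members was 0.07, -0.02 and 0.02 in the same order, near the medians of all genes tested (-0.004, -0.0009 and 0.0004). The directions of *Bfsp1*, *Bfsp2* and *Nes* in M/M held under each scaling tried. Scaled by library size only, which moved the median of all genes to 0.50, their values were -0.81, -0.39 and 1.97 and the split of members passing by adjusted *p* alone went from 1 higher and 2 lower to 6 higher and 2 lower.

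**Figure D4:**
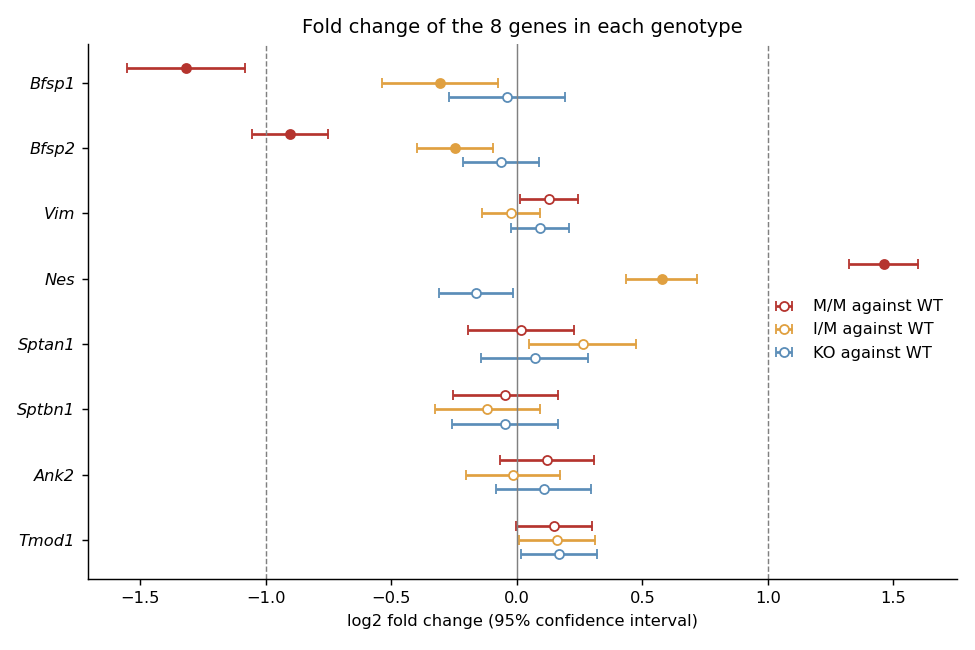
Log2 fold change against WT (horizontal axis) with its 95% confidence interval for the 8 genes (rows) in M/M, I/M and KO lenses. Filled points passed an adjusted *p* of 0.05, and dashed lines mark a fold change of 2. The M/M values of *Bfsp1* (-1.32) and *Nes* (1.46) lie beyond the dashed lines, and no KO point is filled.

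The genes whose pattern over the 12 libraries was most like that of a member were found by the root-mean-square difference of centred log2 CPM. For *Bfsp1* these were *Eaf1* (0.0890), *Stx11* (0.0935) and Gm20757 (0.101). *Bfsp2* stood 73rd for *Bfsp1* at 0.191. For *Bfsp2* they were *Cryba4* (0.0577), a β-crystallin gene, and *Ahsa1* (0.0606) and *Dnajb2* (0.0609), which encode co-chaperones. For *Vim* they were *Aup1* (0.0359), *Trnau1ap* (0.0394) and *Txndc17* (0.0426), and for *Nes* *Fkbp1b* (0.102), *Slc16a12* (0.104) and *Fhl1* (0.104).

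Other genes of the same cytoskeleton were followed in 8 lists with 70 genes, of which 44 passed the filter. In M/M lenses, 12 passed both thresholds (9 higher and 3 lower, background 8.95%) and 37 by adjusted *p* alone (18 higher and 19 lower, background 62.7%). Of the higher ones, 3 had every WT library under the CPM minimum. Without those 3, 6 were higher and 3 lower past both thresholds, and 15 higher and 19 lower by adjusted *p* alone. The median of the log2 fold changes over the 44 was -0.04. In I/M lenses 1 passed both thresholds (2 without I/M replicate 3, background 3.33%). It was *Krt18*, among the 3 with every WT library under the CPM minimum, so that its call was set by the filter. By adjusted *p* alone, 24 passed in I/M, *Krt18* included (14 higher and 10 lower, 12 and 9 without I/M replicate 3, background 32.6%). In KO lenses these counts were 0 and 4 (backgrounds 0.568% and 4.36%). *Sptb*, the β-spectrin of red blood cells, was measured at 985 to 1042 CPM in WT and 719 to 758 in M/M, a log2 fold change of -0.47 (SE 0.06, edgeR adjusted *p* = 1.64e-05). In I/M lenses it was lower by 0.19 on the log2 scale (edgeR adjusted *p* = 0.0321).

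Both other ankyrins were lower in M/M by adjusted *p*, against 31.4% of all genes. *Ank1*, which encodes the erythroid ankyrin-R, went from 36.3 to 46.5 CPM in WT to 6.17 to 14.4 in M/M (log2 fold change -2.0, SE 0.25), with 18.7 to 31.1 in I/M and 36.9 to 46.9 in KO libraries. *Ank3*, which encodes ankyrin-G, fell by 0.55 on the log2 scale. The 7 red blood cell markers summed to 1.22 to 12.04 CPM in WT, 1.07 to 5.64 in KO, 4.73 to 13.0 in I/M and 12.4 to 15.0 in M/M libraries, and their part in the *Ank1* result was not tested. *Slc4a1*, which encodes an anion exchanger of the red cell membrane, stayed at or below 0.0625 CPM in M/M. At the junction of spectrin and actin, 7 of 9 genes tested were lower and 2 higher in M/M by adjusted *p*. The share over all genes was 31.4% each way, and none of the 9 passed both thresholds. The largest of these changes was in *Epb41l4a*, a gene of the protein 4.1 family, at -0.80 (190 ± 10.1 CPM in WT and 109 ± 9.05 in M/M).

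Of 7 tropomyosin and actin genes tested, 6 were higher in M/M by adjusted *p*, against 31.4% of all genes. *Acta2*, smooth muscle actin, went from 62.6 to 75.8 CPM in WT to 169 to 254 (log2 fold change 1.63, SE 0.14), *Tpm1* from 17.5 to 18.8 to 47.8 to 54.5 (1.49, SE 0.07) and *Tpm2* from 6.11 to 7.29 to 13.8 to 15.0 (1.14, SE 0.09). *Acta2* and the tropomyosins are also genes of smooth muscle and fibroblasts, whose marker sums rose in the same libraries, and the part of those cells was not tested. *Tmod3*, the widely expressed tropomodulin, rose from 2.95 to 3.44 CPM to 5.64 to 7.35 (1.07, SE 0.13), while *Tmod2* fell by 0.20 on the log2 scale. Of 6 other intermediate filament genes tested, 2 were higher (1 without *Krt18*) and 3 lower in M/M by adjusted *p*. The share over all genes was 31.4% in each direction. *Krt18*, a keratin of simple epithelia, was measured at 0.231 to 0.354 CPM in WT, 4.54 to 4.95 in I/M and 5.39 to 6.51 in M/M libraries, with log2 fold changes of 3.95 and 4.26. *Lmna*, the gene of lamins A and C, went from 10.5 to 11.9 CPM to 36.4 to 44.1 in M/M (1.87, SE 0.09).

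Of 5 plakin genes tested, 2 were higher in M/M by adjusted *p* (1 without *Dsp*), against 31.4% of all genes. *Dsp*, which encodes desmoplakin, was measured at 0.197 to 0.317 CPM in WT and 4.73 to 8.11 in M/M (log2 fold change 4.63, SE 0.28). *Dsp*, *Krt18* and *Tmod3* passed the filter only through mutant libraries. Of 10 ankyrin-binding membrane protein genes tested, 5 were higher and 3 lower in M/M by adjusted *p*, against 31.4% each way over all genes. *Slc8a1*, a sodium-calcium exchanger, went from 12.3 to 15.7 CPM in WT to 47.3 to 56.8 in M/M (1.88, SE 0.09). *Cd44*, a hyaluronan receptor, went from 8.84 to 40.3 CPM to 91.6 to 124 (1.95, SE 0.36), with WT libraries that differed widely. Over the genes past both thresholds, with *Dsp*, *Krt18* and *Tmod3* left out, the edgeR adjusted *p* in M/M was at most 3.44e-04 (*Cd44*).

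**Figure D5:**
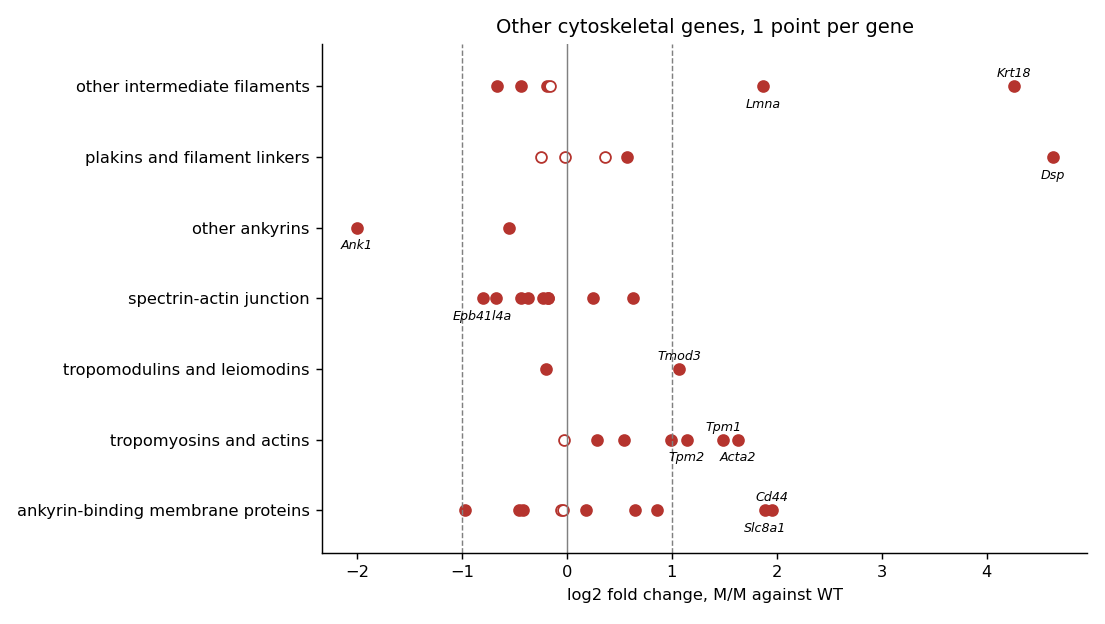
Log2 fold change in M/M against WT (horizontal axis) of 41 tested genes of 7 cytoskeletal lists (rows), 1 point per gene. Filled points passed an adjusted *p* of 0.05, dashed lines mark a fold change of 2, and the named genes are labelled. Points of the ankyrin row lie below 0 and those of the tropomyosin and actin row lie at or above 0, except *Actb* at -0.02.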

How the data were processed

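RNA was sequenced from pooled P7 mouse lenses in 12 libraries, 3 per genotype, assigned to genotype from the sample labels. The authors demultiplexed reads with bcl2fastq, aligned and counted them with DRAGEN against an Ensembl mouse assembly (mm10 in the labels), and deposited raw estimated counts for each gene. Whole counts had been expected when the tests were chosen. Of the deposited estimated counts, 88.4% were whole, and all were rounded. Rows were repeated for 168 gene identifiers, with equal values, and 1 row was kept. A second deposited table holds the authors' edgeR comparisons (counts, CPM, log2 fold changes and p-values). Only its counts were used, to check the columns of the 12 libraries, which were equal for all 9470 genes compared.

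A gene was kept where 3 or more libraries reached a CPM of 5 (8984 genes). TMM factors and 1 quasi-likelihood fit on genotype over all 12 libraries were made in edgeR 4.0.16 (R 4.3.3), with Benjamini–Hochberg adjustment over all genes of a comparison. Calls used an adjusted p of at most 0.05 with or without a fold change of at least 2. Pair ratios were tested by exact permutation over libraries (scipy 1.17.1). Log2 CPM used a prior count of 2. Alternatives were library size only, TMM without the crystallin genes, DESeq2 1.42.0, no filter, only the libraries compared, the replicate number as a block, and each library left out in turn. Total counts per library ranged from 56162169 to 82090198.

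The fit was tested on simulated data. The 8 members and all lists were chosen with earlier results of these data known. From each cytoskeletal list, the genes past both thresholds in any comparison with WT were named (at most 5 per list), or otherwise the gene with the largest change in M/M. The 3 nearest genes were named for *Bfsp1*, *Bfsp2*, *Vim* and *Nes*. A few genes this rule covers are left out here. Other genes named were chosen after their values were seen. Same-numbered libraries did not deviate together (correlations from -0.264 to 0.149), and no number in the labels names a shared litter or batch, so the numbers were not taken as pairs. No 2 libraries of a group agreed within sampling noise (chi-square per gene of at least 8.76). Coordinates and exon lengths are from a GENCODE annotation of GRCm38, matched by gene identifier. Promoter windows matched for 8 of 8 members. Python 3.11.15, numpy 2.4.6, pandas 2.3.3 and matplotlib 3.10.9 were used.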

Additional observations from a re-analysis of the deposited data

How the results depend on the processing

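*Bfsp1*, *Bfsp2* and *Nes* kept their direction and passed the adjusted *p* threshold in M/M lenses under every alternative listed. Without TMM factors, scaling by library size only moved the median of all genes by 0.50 in M/M, 0.20 in I/M, 0.05 in KO and 0.31 between the mutants. Then 1 member (*Nes*) passed both thresholds in M/M, and by adjusted *p* alone 8 members passed in M/M, 7 between the mutants and 8 per M allele. The I/M calls of *Bfsp1* (-0.10) and *Bfsp2* (-0.04) were lost, 4 members passed, all higher, and 2 of the wider list passed both thresholds. Values that turned to the other sign were *Sptbn1* (0.46 in M/M, 0.0786 in I/M and 0.23 per allele), *Vim* (0.18) and *Ank2* (0.19) in I/M, *Bfsp1* in KO (0.0127), and *Sptan1* (0.063) and *Tmod1* (0.30) between the mutants. In the wider list, calls by adjusted *p* in M/M went from 18 higher and 19 lower to 29 and 7.

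With no filter on low counts, *Vim* (0.0008) and *Ank2* (0.0091) turned sign in I/M, 5 members passed there by adjusted *p*, and 27, 8, 1 and 17 genes of the wider list passed both thresholds in M/M, I/M, KO and between the mutants. The cause was not tested. With the replicate block, the I/M call of *Bfsp1* (-0.30, edgeR adjusted *p* = 0.0581) and the call of *Vim* between the mutants (0.15, adjusted *p* = 0.0510) were lost, 2 genes of the wider list passed in I/M, and no other member's call changed. With DESeq2, 3 calls of members were gained and none was lost, and calls of the wider list in I/M went from 14 higher and 10 lower to 12 and 10.

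With 1 library left out in turn, members past the adjusted *p* threshold numbered 3 to 5 in M/M (5 without WT replicate 2) and 1 to 4 in I/M (1 without WT replicate 2). Members past both thresholds between the mutants numbered 0 to 1, with 0 without I/M replicate 3 or M/M replicate 2 or 3. The wider list had 0 to 2 in I/M (0 without any 1 M/M library) and 4 to 8 between the mutants (4 without M/M replicate 2). Fold changes of members with a range that crossed 0 were -0.0442 to 0.0812 for *Sptan1* and -0.13 to 0.0217 for *Sptbn1* in M/M, -0.0655 to 0.0144 for *Vim* and -0.11 to 0.0775 for *Ank2* in I/M, -0.0831 to 0.0094 for *Bfsp1* and -0.13 to 0.0295 for *Sptbn1* in KO, -0.0729 to 0.0601 for *Tmod1* between the mutants, and -0.0405 to 0.0465 for *Sptan1* and -0.0685 to 0.0082 for *Sptbn1* per allele. Log2 ratios with such a range were *Ank2*/*Sptbn1* (-0.0405 to 0.194) and *Tmod1*/*Sptan1* (-0.231 to 0.0172) in I/M, *Sptan1*/*Sptbn1* in M/M (-0.0048 to 0.131) and *Bfsp1*/*Bfsp2* in KO (-0.0002 to 0.0386). *Nes*, the member with the fewest reads, had 416 to 2382 counts per library. With 3 pools per genotype, exact permutation of a single value could not go below *p* = 0.1. The adjusted *p* threshold without the fold change was listed as an alternative after the data were seen.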

Other observations

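*Sptbn5*, which encodes the βV-spectrin chain, was below the filter on low counts and was named after its values were seen. It was counted 18, 21 and 17 times in WT, 2, 2 and 1 times in KO, 41, 25 and 50 times in I/M and 51, 52 and 52 times in M/M libraries. The KO libraries lay below all others. In the fit without a filter, the log2 fold change in KO was -3.54 (SE 0.53, edgeR adjusted *p* = 2.28e-09), while those in I/M (0.49) and M/M (0.65) did not pass. Adjusted *p* of that fit can lie far from those of the main fit. For *Bfsp1* in I/M they were 3.00e-07 and 0.0435, and for *Vim* in M/M 0.106 and 0.0503 (edgeR). In the main fit, the wider list held 4 calls by adjusted *p* in KO lenses, all under a fold change of 2. *Tpm1* (0.48, edgeR adjusted *p* = 0.00112) and *Actg1* (0.19, 0.0188) were higher there, and *Tmod2* (-0.45, 0.00496) and *Cdh1* (-0.31, 0.0387) were lower.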
